A study of Sus scrofa with 40 samples.

Results

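The genes described here encode proteins that hold maternal mRNAs in store in the oocyte and lengthen their poly(A) tails when they are needed. They were chosen by name, as the rows of both deposited count tables whose gene name is one of 9 symbols: CPEB1, CPEB2, CPEB3, CPEB4, PAPD4, PABPC1L, YBX2, LSM14B and PUM2. Of the 9 symbols, 8 had a row among the 38794 named rows, and LSM14B had none. Counts were present for 8 of them in at least 1 single oocyte and for 7 in at least 1 pool.

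The libraries were from pig oocytes at metaphase II, the arrest at which a matured egg waits for sperm, taken from commercial hybrids of Large White, Duroc and Berkshire. The labels class each library as mtDNA-deficient or mtDNA-normal, that is, by its amount of mitochondrial DNA, and the study asked how the transcripts of the 2 classes differ. There were 5 deficient and 6 normal libraries of pooled oocytes, and 14 deficient and 15 normal libraries of 1 oocyte each. Pools were extracted with a column kit and amplified by a single-primer isothermal method, whereas single oocytes were lysed in the tube and prepared with a kit that carries pig primers against unwanted transcripts. How deficiency was assessed is given in the labels only as the letters BCB with "neg" or "pos" in the titles of the single oocytes, and neither the number of animals nor the number of oocytes in a pool is given plainly. The series text states n = 5 per group for the pools, against 6 pools labelled normal.

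A growing oocyte makes mRNA that it does not translate at once, and keeps it with a short poly(A) tail in ribonucleoprotein particles. In the scheme worked out mainly in frog oocytes, CPEB1 bound to a U-rich element in the 3′ untranslated region releases such an mRNA during maturation, the poly(A) polymerase GLD2 (encoded by PAPD4) lengthens its tail, and poly(A)-binding proteins of the oocyte hold the tail and promote translation. Because the regulation acts on tails and proteins, the amount of an mRNA measured here says nothing of how well it was translated.

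Each pool had between 14480500 and 29539000 counts on named genes and each single oocyte between 706929 and 3067520. The row LOC102158401 took 46.7% to 76.0% of the counts of a single oocyte and at most 0.0275% of those of a pool, and the other genes share what is left of the counts. Its share was 46.7% to 70.7% in deficient oocytes and 56.2% to 76.0% in normal ones. A higher share lowers the plain CPM of every other gene, which bears on CPM compared between states in oocytes and sums. The 18S rRNA row, RN18S, took 0.175% to 1.30% of a pool and 2.06% to 4.86% of an oocyte. Of 12 oocyte marker genes, 10 averaged at least 10 CPM (counts scaled to 1000000 per library) in both states and both kinds of library. Of 15 cumulus and granulosa markers with a row, 3 reached that level in pools and 1 in single oocytes, and AMH was listed at 0 in all libraries. Their summed level was 84.8 to 217 CPM in deficient pools and 115 to 176 CPM in normal pools. Of 6 theca and stroma markers with a row, none averaged 10 CPM in pools and 1 did in single oocytes. The summed level of these 6 was 9.76 to 55.7 CPM in deficient oocytes and 1.96 to 43.5 CPM in normal ones. No pair of libraries of one kind and one state agreed within sampling noise, the closest having a chi-square per degree of freedom of 4.28.

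Levels below are CPM of the counts on named genes, compared only within a gene because no gene lengths came with the tables. Differences are log2 values of deficient over normal, of pools over single-oocyte sums or of 22 over 17 September, from edgeR's quasi-likelihood test after scaling by the trimmed mean of M-values (TMM), and p-values are adjusted by the Benjamini-Hochberg method over all genes tested. Because cells are not replicates, counts of the 29 oocytes were added up within each state over oocytes whose titles open with the same number, which gave 4 deficient sums (numbers 1 to 4) and 3 normal sums (numbers 2 to 4). No label says that pools or sums came from separate animals, so a p-value here measures no more than how these samples spread, and part or all of that may be technical.

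CPEB1, the founding member of the family, which represses its targets until it is phosphorylated in maturation and then activates them, had levels that overlapped between deficient and normal pools. The deficient pools A1, A2, A3, B2 and B4 had 70.2, 36.7, 24.9, 42.4 and 87.5 CPM, and the normal pools had a lowest value of 16.8, a median of 53.5 and a highest value of 72.0 CPM. The ranges overlapped almost wholly, and the deficient pools averaged 52.4 ± 25.7 CPM (SD, n = 5) against 51.5 ± 19.2 CPM for the normal pools (n = 6). The log2 difference was 0.18 with a standard error (SE) of 0.31 (edgeR quasi-likelihood, adjusted p = 0.951). Its sign turned when deficient pool B4, the highest of the 11, was left out, and the estimate was then -0.05. In a pool, fewer oocytes with a transcript and less of it in each oocyte cannot be told apart.

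CPEB2, a paralogue that also binds U-rich elements and is best known for acting on translation elongation, had the largest estimate of the 7 members tested in the pools. It had 244, 201, 102, 120 and 158 CPM in the deficient pools A1, A2, A3, B2 and B4, against a lowest value of 65.9, a median of 107 and a highest value of 126 CPM in the normal pools. Deficient pools A1, A2 and B4 lay above every normal pool, and A3 and B2 lay within the normal range. The means were 165 ± 58.3 CPM in deficient pools, against 101 ± 26.9 CPM in normal pools, and the log2 difference was 0.84 (SE 0.29, 95% interval 0.22 to 1.46), or 1.79-fold. Its unadjusted p was 0.0115 in edgeR's test, and its adjusted p was 0.874, so it did not pass at 0.05. Over all genes tested, 726 of 13540 (5.36%) had an unadjusted p under 0.05, and CPEB2 was the single member of the 7 tested that did.

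The CPEB2 difference had the same sign in every alternative computed for the pools. It was 0.77 among pools whose title begins with A and 0.78 among those that begin with B, with edgeR adjusted p = 0.998 and 0.999. These fits, and the ratios below, reuse the pools in which CPEB2 stood out among the members, so they are not separate support. The share of CPEB2 in the summed counts of the 7 members, a ratio taken within each library, averaged 16.99% ± 3.60 in deficient pools and 11.8% ± 2.59 in normal pools. The ranges, 12.4% to 21.5% in deficient and 8.93% to 15.3% in normal pools, overlapped. Per 100 counts of CPEB4 there were 35.4 ± 7.50 counts of CPEB2 in deficient pools and 24.9 ± 6.91 in normal pools, and the range of 25.7 to 45.6 in deficient pools overlapped that of 16.8 to 33.0 in normal pools.

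**Figure D1:**
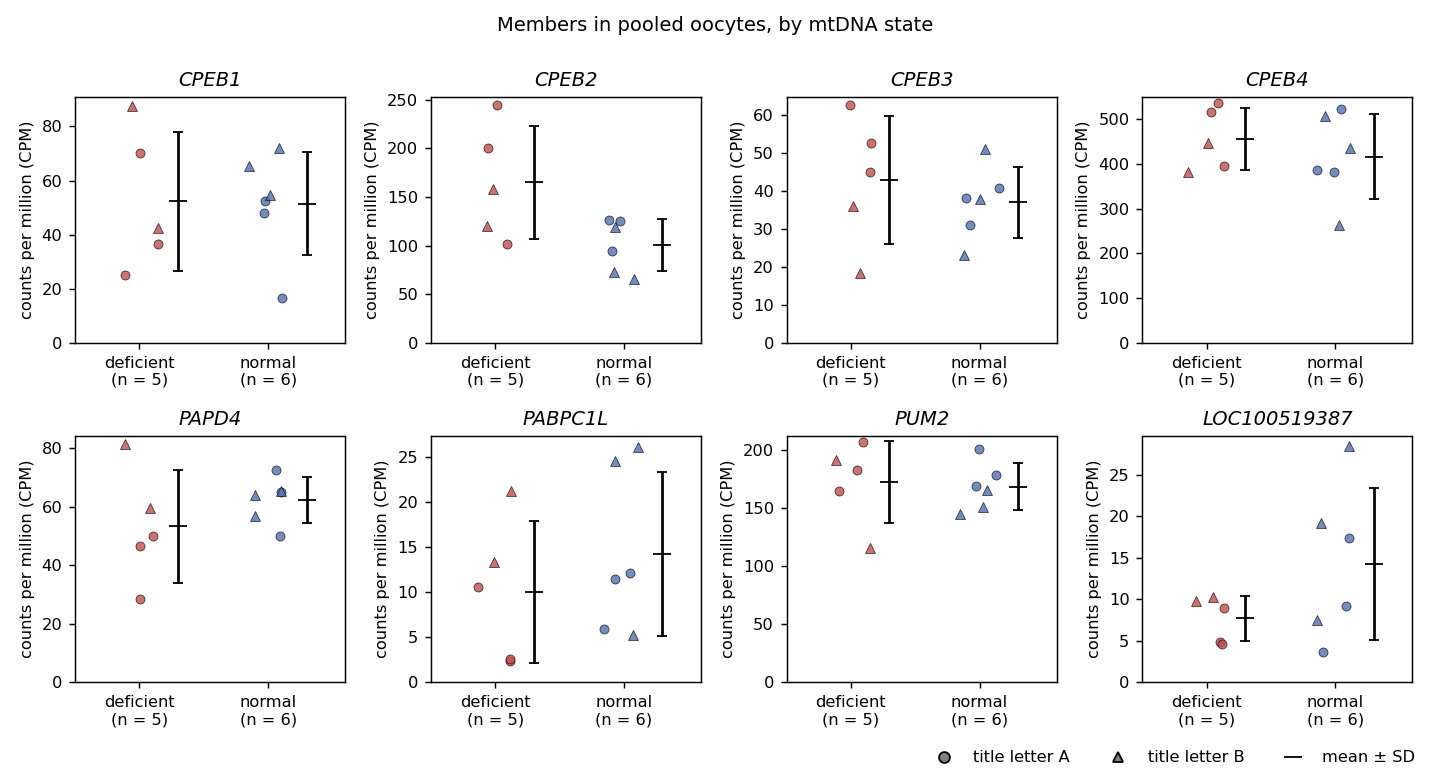
Level in CPM (y axis, from 0) of 7 members and of the row LOC100519387 in each pool of deficient (n = 5) and normal (n = 6) oocytes. Points are pools, circles for title letter A and triangles for B, and the bar is the mean ± SD. The states overlap in every panel, and 3 of the 5 deficient pools lie above all normal pools for CPEB2.

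CPEB3 and CPEB4 are the closest paralogues of CPEB2, and in frog oocytes CPEB4 takes over from CPEB1 late in meiosis. CPEB3 had 62.6, 52.6, 44.9, 18.5 and 36.0 CPM in the deficient pools A1, A2, A3, B2 and B4, and 23.2 to 51.0 CPM with a median of 38.0 in the normal pools. The deficient pools held both the highest 2 and the lowest of the 11 values, and the log2 difference was 0.38 (SE 0.33, edgeR adjusted p = 0.922). Among pools titled B alone it turned to -0.38 (SE 0.48). CPEB4 had 536, 515, 396, 382 and 446 CPM in the deficient pools and 263 to 523 CPM with a median of 410 in the normal pools. Its groups overlapped throughout, with means of 455 ± 69.1 CPM in deficient pools, against 416 ± 95.6 CPM in normal pools and a log2 difference of 0.28 (SE 0.23, adjusted p = 0.922). Over all 11 pools the 4 CPEB genes had positive estimates, with the turns given for CPEB1 and CPEB3, and none passed the test.

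PAPD4 and PABPC1L, the members that act on or bind the tail itself, had negative estimates over all pools. In the single-oocyte sums their estimates were positive, at 0.16 (SE 0.52) and 0.08 (SE 0.23). PAPD4, which encodes the cytoplasmic poly(A) polymerase GLD2, had 50.1, 28.6, 46.5, 59.6 and 81.5 CPM in the deficient pools A1, A2, A3, B2 and B4, and 50.01 to 72.6 CPM with a median of 64.4 in the normal pools. The deficient pools spread over a wider range that covered the normal one on both sides. The log2 difference was -0.16 (SE 0.24, edgeR adjusted p = 0.945), and without normal pool A3, the highest normal pool, it was 0.0059.

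PABPC1L, the poly(A)-binding protein of oocytes and early embryos, without which female mice are infertile, had the highest coefficient of variation of the 7 members over the 11 pools, 68.5%. It had 10.5, 2.35, 2.60, 21.3 and 13.3 CPM in the deficient pools A1, A2, A3, B2 and B4, and 5.25 to 26.1 CPM with a median of 11.8 in the normal pools. The lowest 2 pools were deficient and the highest 2 were normal, with the other 7 mixed, and the means were 10.01 ± 7.93 CPM in deficient pools, against 14.2 ± 9.07 CPM in normal pools. The log2 difference of -0.39 had an SE of 0.51 (edgeR adjusted p = 0.936) and a 95% interval of -1.48 to 0.70, the widest of the members tested.

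The PABPC1L level moved with other properties of the pools. The 4 pools with the least PABPC1L were deficient A2 and A3 and normal A3 and B1, and their share of RN18S was 0.175% to 0.204%, whereas it was 0.238% to 1.30% in the other 7. The normal pools B2 and B4, with 26.1 and 24.6 CPM of PABPC1L, had the highest RN18S shares, 1.30% and 0.878%, and 19245 and 18607 genes detected, against 14207 in deficient A2. The RN18S share did not follow PABPC1L throughout: deficient B4 and B2, with 13.3 and 21.3 CPM, had 0.238% and 0.427%. Normal A2 and A4, with less PABPC1L at 11.4 and 12.1 CPM, had 0.759% and 0.623%. Genes detected did not follow PABPC1L throughout either: normal B1, with 5.25 CPM, had 17933, and deficient B4, with 13.3 CPM, had 16184. Pools titled B averaged 18.1 ± 8.72 CPM (n = 5) and those titled A averaged 7.48 ± 4.45 CPM (n = 6). What the letter marks is not stated. The log2 difference between states was -0.83 (SE 0.61) among pools titled A and 0.018 (SE 0.60) among those titled B, and the part of the RN18S share in it was not tested.

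PUM2 encodes a Pumilio protein that binds Pumilio elements in 3′ untranslated regions and holds back translation, in frog oocytes that of a regulator of meiosis. Its levels were 165, 183, 207, 115 and 192 CPM in the deficient pools A1, A2, A3, B2 and B4, and 145 to 201 CPM with a median of 167 in the normal pools. One deficient pool, B2, was below all normal pools and another, A3, above them. The log2 difference was 0.18 (SE 0.23, edgeR adjusted p = 0.933).

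Of the 7 members tested in the pools, 5 had a log2 difference above 0 and 2 below, with a median of 0.18, against 49.8% above 0 and a median of -0.0019 over all genes. None of the 7 passed at an adjusted p of 0.05, and neither did any of the 13540 genes (0% called). With limma-voom no gene passed either, and with DESeq2 28 genes did, none of them a member.

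The rows for the proteins that mask stored mRNA held few or no counts. YBX2, in mice the germ cell protein MSY2 that packages stored mRNA, was at 0 in all 11 pools, where a count of 0 allows up to 0.102 to 0.207 CPM. It had counts in 4 of 29 oocytes, 3 deficient and 1 normal, with at most 4 in any of them, and was too low to be tested. LSM14B, a component of the same kind of particle, had no row to describe.

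By RefSeq gene ID, in a table of assembly Sscrofa11.1 used for names only, the row LOC100519387 is YBX2 and the row LOC100626826 is LSM14B. They lie outside the naming rule and were looked up after the tables had been seen. LOC100519387 had 8.94, 4.83, 4.63, 10.24 and 9.81 CPM in the deficient pools A1, A2, A3, B2 and B4, and 3.62 to 28.4 CPM with a median of 13.3 in the normal pools. All 5 deficient pools were below the highest 3 normal pools, and the log2 difference was -0.70 (SE 0.41, edgeR unadjusted p = 0.103, adjusted p = 0.921). The normal pools B2, B4 and A4, with 28.4, 19.2 and 17.3 CPM of LOC100519387, had RN18S shares of 1.30%, 0.878% and 0.623%, and every deficient pool had at most 0.441%, though normal pool A2 had 0.759% with 9.18 CPM. The part of the RN18S share in the difference was not tested. LOC100626826 was near its limit of detection, with means of 0.676 ± 0.384 CPM in deficient pools, against 0.403 ± 0.243 CPM in normal pools.

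In single oocytes the same members were measured with fewer counts. CPEB4 was detected in every oocyte, with a lowest value of 76.8, a median of 103 and a highest value of 146 CPM in 14 deficient oocytes, and 52.6, 109 and 129 CPM in 15 normal ones. CPEB2 ran from 5.30 to 53.7 CPM with a median of 19.996 in deficient oocytes, and from 2.46 to 30.6 CPM with a median of 17.6 in normal ones. The 4 oocytes with the most CPEB2, at 35.8, 38.7, 50.2 and 53.7 CPM, were deficient and all carry title number 4, so they may share a source. PAPD4 was the sparsest of the 7, at 0 in 1 deficient and 2 normal oocytes, with medians of 8.93 CPM in deficient oocytes, against 5.99 CPM in normal oocytes.

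**Figure D2:**
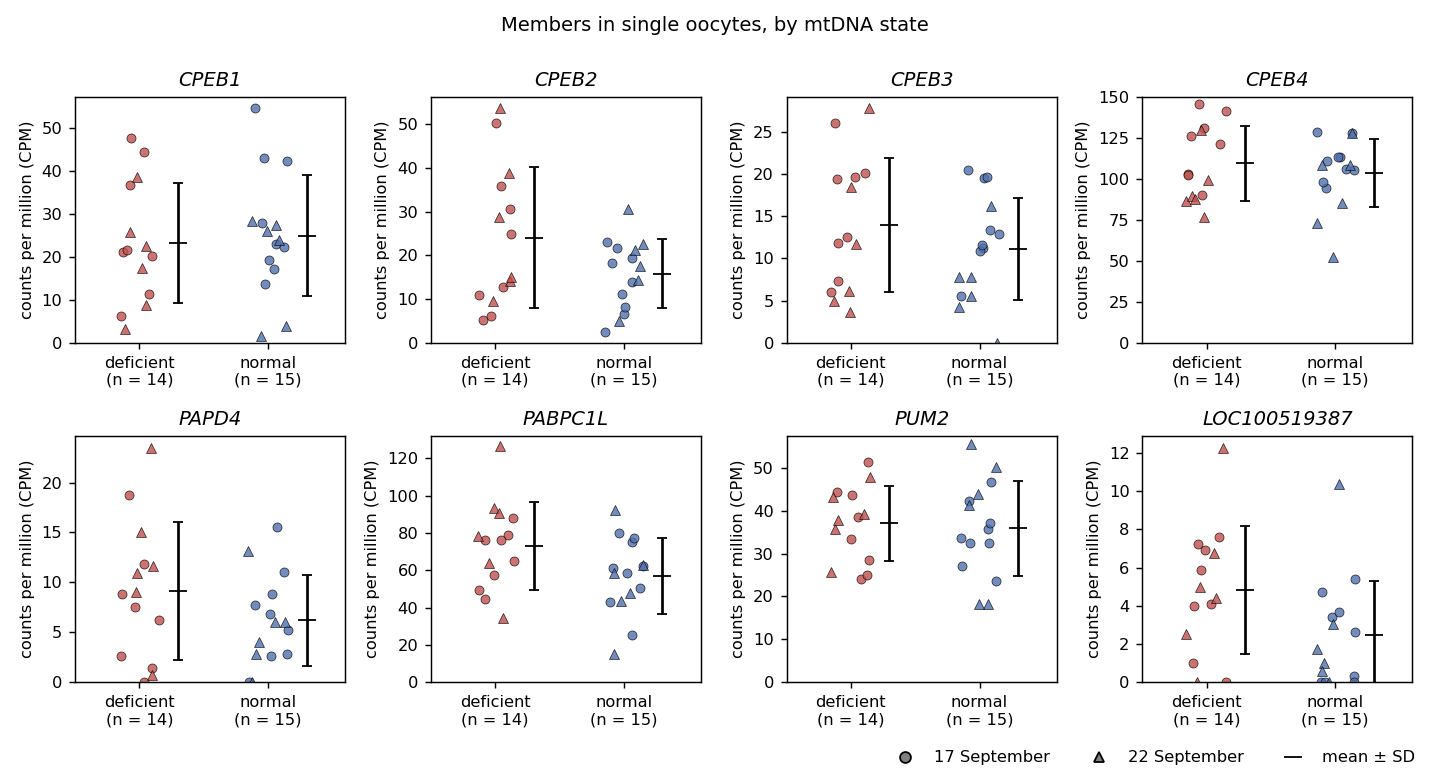
Level in CPM (y axis, from 0) of 7 members and of the row LOC100519387 in each single oocyte of the deficient (n = 14) and normal (n = 15) groups. Points are oocytes, circles for columns dated 17 September and triangles for 22 September, and the bar is the mean ± SD over oocytes, which are not independent replicates. The states overlap in all panels, and the highest CPEB2 values, up to 53.7 CPM, are in deficient oocytes.

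Summed by title number, CPEB2 had 8.01, 20.2, 23.3 and 29.9 CPM in deficient sums 1 to 4, against 15.3, 12.9 and 17.6 CPM in normal sums 2 to 4. Deficient sum 1 was the lowest of the 7 and the other 3 deficient sums were the highest. The log2 difference was 0.25 (SE 0.37, edgeR unadjusted p = 0.516). With the title number as a block, a fit that leaves out deficient sum 1, it was 0.52 (SE 0.30, edgeR unadjusted p = 0.0977). Leaving out each sum in turn with no block gave 0.14 to 0.52, so the rise cannot be credited to the block. The pool estimate exceeded that of the sums by 0.60 on the log2 scale (SE 0.50, edgeR interaction test, unadjusted p = 0.247, adjusted p = 0.943), so the CPEB2 effects in pools and sums were not shown to differ.

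CPEB1 had 42.5, 15.7, 30.8 and 17.9 CPM in deficient sums 1 to 4 and 14.01, 22.4 and 31.96 CPM in normal sums 2 to 4. These overlapped, and the log2 difference of 0.03 (SE 0.36) turned negative under 6 other settings and without any one of deficient sums 1 and 3 and normal sum 2. CPEB4 had 124, 112, 128 and 96.4 CPM in the deficient sums against 81.9, 111 and 114 CPM in the normal ones, a log2 difference of -0.02 (SE 0.24). The plain CPM means of CPEB4, 115 ± 14.2 in deficient and 102 ± 17.8 in normal sums, ordered the other way. The same held for CPEB3 and PUM2, and the log2 values are scaled by TMM whereas the CPM are not. The part of the LOC102158401 share in these orders was not tested.

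PABPC1L had 51.5, 46.4, 63.3 and 92.5 CPM in deficient sums 1 to 4 and 43.9, 41.9 and 72.6 CPM in normal sums 2 to 4, a log2 difference of 0.08 (SE 0.23). The biological coefficient of variation of PABPC1L was 58.9% over the 11 pools, above the 49.0% of pool genes of like abundance, and 27.8% over the 29 oocytes, where genes of like abundance had 32.5%. PAPD4 had 2.09, 4.84, 9.19 and 12.9 CPM in the deficient sums and 5.31, 4.51 and 7.47 CPM in the normal ones, so that the deficient sums again covered the normal range on both sides. CPEB3 ran from 5.64 to 17.01 CPM in the deficient sums and from 6.79 to 13.8 CPM in the normal sums, which overlapped, with a mean of 12.3 ± 5.57 CPM over the deficient sums, against 10.9 ± 3.63 CPM over the normal ones, and a log2 difference of -0.07 (SE 0.42).

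PUM2 lay at nearly one level in the sums. Its deficient sums 1 to 4 had 36.9, 37.1, 37.6 and 37.5 CPM and the normal sums 2 to 4 had 36.5, 36.0 and 37.1 CPM, a coefficient of variation of 1.52% over the 7 sums. Counting error alone is 10.4% at the 92 counts of the shallowest sum and 5.44% at the 338 of the deepest, so their closeness shows nothing about how steady the transcript was, and over the 9 sums by date the coefficient was 5.33%. Single oocytes were less alike, from 24.2 to 51.3 CPM in deficient and from 18.2 to 55.6 CPM in normal ones. The log2 difference for PUM2 after TMM scaling was -0.17 (SE 0.24, 95% interval from edgeR -0.68 to 0.34), opposite in sign to that of the plain CPM means, 37.3 ± 0.323 in deficient and 36.5 ± 0.575 in normal sums.

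In the sums 4 of the 7 members had a log2 difference above 0, as did 49.7% of all genes. No member passed, and each adjusted p was 1.00 in edgeR's test. None of the 11964 genes passed (0% called), and 231 (1.93%) had an unadjusted p under 0.05, no member among them. DESeq2 called 2 genes and limma-voom none. With the title number as a block, which pairs 6 of the sums, 2 genes passed, and neither was a member. The interaction test called none of 17643 genes (0% called), with 939 (5.32%) at an unadjusted p under 0.05 and 1 gene by DESeq2, and none of the 7 members was among either set. Of these 7, 5 had an interaction term above 0, against 47.6% of all genes.

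The row LOC100519387 had 4.88, 6.05, 5.27 and 4.78 CPM in deficient sums 1 to 4, all above the 4.25, 1.75 and 1.76 CPM of normal sums 2 to 4. Ranges failed to overlap for 3.73% of all genes in the sums, and these sums rest on 14 to 39 counts each. The log2 difference was 0.87 (SE 0.61, edgeR unadjusted p = 0.169, adjusted p = 1.00), opposite in sign to that in the pools, and the difference between the 2 estimates was -1.56 (SE 0.72, interaction test, unadjusted p = 0.0395, adjusted p = 0.904). None of the 7 members had ranges that failed to overlap between the states, in the pools, where 0.598% of genes did, or in the sums.

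**Figure D3:**
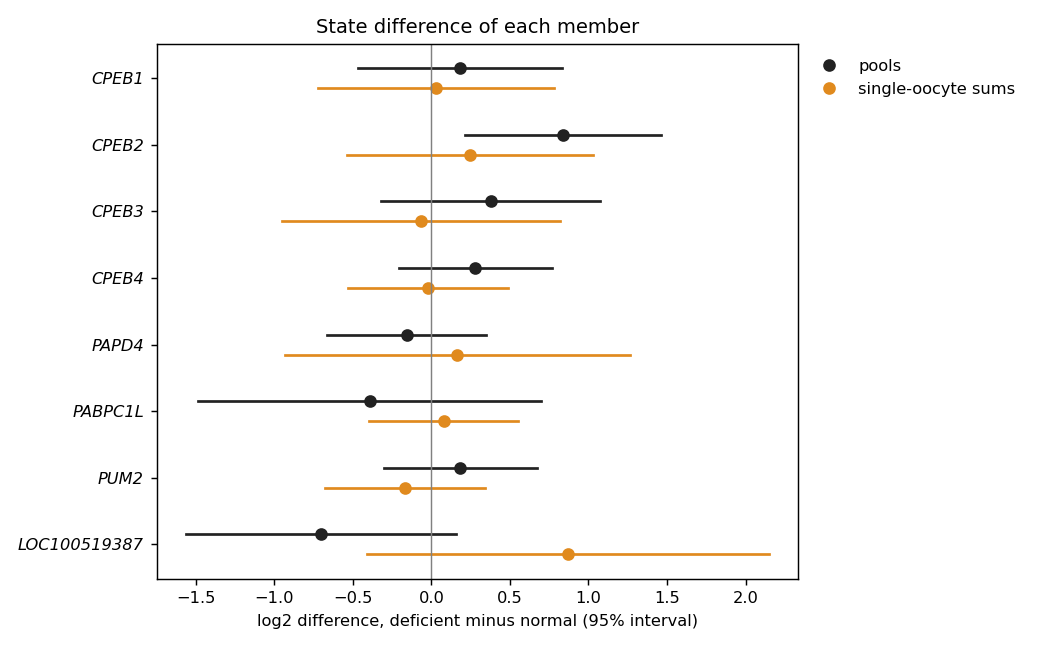
Log2 difference of deficient minus normal (x axis, 0 marked by the line) for each member and for LOC100519387 in pools (black, upper) and in single-oocyte sums (orange, lower), with 95% intervals from edgeR. The interval of CPEB2 in the pools, 0.22 to 1.46, lies above 0 before adjustment for 13540 genes, and all others reach across 0.

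Between library types most members differed. Pools were set against the 7 sums with state as a covariate, and kit, extraction, amplification, pooling and depth all differ between the 2 types and cannot be told apart. Of the 7 members tested, 5 were higher in pools, CPEB2, CPEB3, CPEB4, PAPD4 and PUM2, and 1 was lower, PABPC1L. Over all genes 67.1% passed, 31.9% higher and 35.3% lower in pools, 69.7% had an unadjusted p under 0.05 and 47.8% had a log2 difference above 0, so passing was common, whereas the members' median log2 difference of 1.51 stands beside one of -0.17 for all genes.

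PAPD4 differed most among the members that were higher in pools, with 28.6 to 81.5 CPM over the 11 pools and 2.09 to 12.9 CPM over the 7 sums. The types did not overlap in plain CPM, and the log2 difference was 2.63 (SE 0.28, edgeR adjusted p = 9.81e-09), or 6.20-fold. CPEB2 ran from 65.9 to 244 CPM in pools and from 8.01 to 29.9 CPM in sums, a log2 difference of 2.41 (SE 0.28, adjusted p = 2.97e-08), or 5.30-fold. The difference was smaller for its paralogues: 1.51 for CPEB4 (SE 0.19, adjusted p = 1.22e-07) and 1.30 for CPEB3 (SE 0.29, adjusted p = 0.000411). PUM2 had 115 to 207 CPM in pools against 36.0 to 37.6 CPM in sums, a log2 difference of 1.74 (SE 0.19, adjusted p = 1.07e-08).

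PABPC1L went the other way. It had 2.35 to 26.1 CPM in the pools and 41.9 to 92.5 CPM in the sums, with no overlap and a log2 difference of -2.86 (SE 0.34, adjusted p = 4.64e-08 in edgeR), so that it was 7.24-fold lower in pools. It was lower in pools among normal samples alone, by a log2 difference of -2.55 (SE 0.40), and among deficient samples alone, by -3.27 (SE 0.49). In the counts summed over the 7 members of a library, a measure free of the other genes, PABPC1L made up 1.46% ± 1.17 in pools (n = 11) and 21.8% ± 4.52 in sums (n = 7). CPEB4 held the largest share in both, 48.3% ± 4.47 in pools and 41.4% ± 5.15 in sums, though a share of counts also depends on transcript length.

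CPEB1 did not pass, with 16.8 to 87.5 CPM in pools and 14.01 to 42.5 CPM in sums, which overlap, and a log2 difference of 0.55 (SE 0.26, adjusted p = 0.0649 in edgeR). It passed without normal pool A3, its lowest pool (adjusted p = 0.0270), and without deficient sum 1, its highest sum (adjusted p = 0.0439). The ranges of pools and sums failed to overlap for the other 6 of the 7 members, as they did for 32.5% of all genes. These ranges are of plain CPM, which the share of LOC102158401 lowers for every other gene in the sums. Overlap was not computed without that row. These 6 kept their direction and passed in every alternative run for library type, among them the fit without the rows LOC102158401 and RN18S and the one with each oocyte as a sample. A different scaling moved the median of all genes from -0.17 under TMM to -0.65 under relative log expression (RLE), and the RLE values ran from 2.18 for PAPD4 down to -3.35 for PABPC1L. RLE left the log2 difference of CPEB1 at 0.05.

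**Figure D4:**
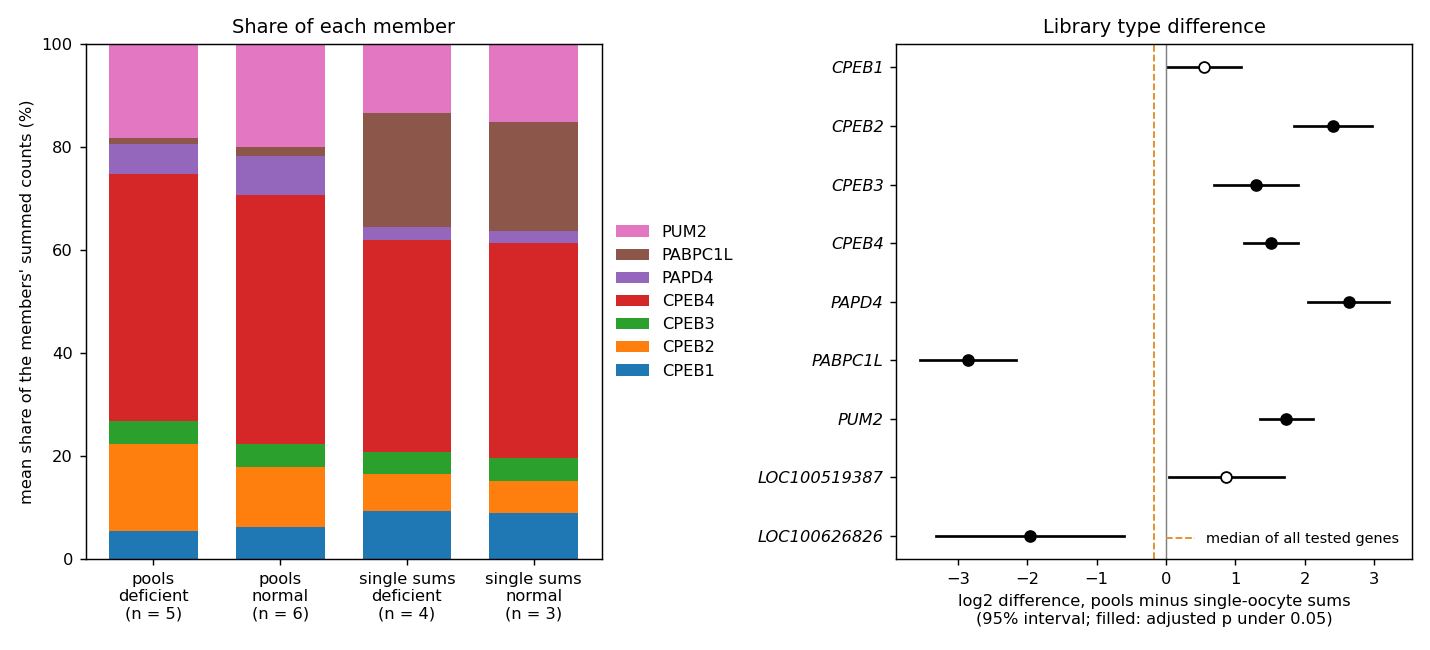
Left, mean share in percent of each of 7 members in their summed counts, in deficient and normal pools (n = 5 and 6) and in deficient and normal single-oocyte sums (n = 4 and 3). Right, log2 difference of pools minus sums with its 95% interval for the members and the 2 rows found by gene ID, filled where the edgeR adjusted p was under 0.05, with the median of all tested genes dashed. PABPC1L took 1.46% of the members' counts in pools and 21.8% in sums, and stands at -2.86 on the right while 5 members stand at 1.30 or above.

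The row LOC100519387 had 3.62 to 28.4 CPM in pools and 1.75 to 6.05 CPM in sums, with a log2 difference of 0.87 (SE 0.40, adjusted p = 0.0582 in edgeR). Among normal samples alone it was 1.82 (SE 0.58, adjusted p = 0.0168) and among deficient samples alone -0.03 (SE 0.50, adjusted p = 0.968). Leaving out any one of 4 samples, deficient pool A2, normal pool A3, or deficient sum 2 or 3, took the adjusted p to between 0.0334 and 0.0474. LOC100626826 was lower in pools, with a log2 difference of -1.95 (SE 0.66, adjusted p = 0.0114), at levels of 0.135 to 1.24 CPM in pools and 0 to 3.48 CPM in sums, and among deficient samples alone it did not pass (adjusted p = 0.199).

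The columns of the single-oocyte table carry 2 dates, 17 and 22 September, whose meaning is not given. Title numbers 1 and 3 fall on 17 September, number 2 on 22 September and number 4 on both, so date and number are partly the same split. Oocytes were summed by state, number and date into 9 sums, 4 of 22 September and 5 of 17 September. Of the 7 members none passed, where 51 of 12911 genes (0.395%) did by edgeR and 189 by DESeq2, and 2 had an unadjusted p under 0.05, where 10.7% of genes did. The ranges of the dates overlapped for all 7, and failed to for 3.19% of genes. The count of 51 was 14 without deficient sum 4 of 17 September, 19 without deficient sum 3 and 78 without normal sum 2.

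Those 2 were CPEB1 and CPEB3, both lower on 22 September. CPEB1 had 15.7, 20.5, 14.01 and 27.8 CPM in the 4 sums of 22 September, against 42.5, 30.8, 12.97, 22.4 and 33.4 CPM in the 5 sums of 17 September. The dates overlapped, with deficient sum 4 of 17 September the lowest of the 9, and the log2 difference was -0.67 (SE 0.30, edgeR unadjusted p = 0.0385, adjusted p = 0.435). CPEB3 had 5.64, 15.8, 6.79 and 6.73 CPM in the sums of 22 September and 9.75, 17.01, 18.6, 13.8 and 13.8 CPM in those of 17 September. Deficient sum 4 of 22 September alone lay among the values of the other date, and the log2 difference was -0.86 (SE 0.35, unadjusted p = 0.0238, adjusted p = 0.372).

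CPEB4 averaged 94.1 ± 22.5 CPM over 12 oocytes of 22 September and 116 ± 16.3 CPM over 17 oocytes of 17 September, and its log2 difference over the sums was -0.30 (SE 0.21, edgeR adjusted p = 0.651). CPEB2 was at 0.32 (SE 0.32), and PAPD4, PABPC1L and PUM2 had estimates near 0 whose sign turned with the setting. Within dates, the state difference of CPEB2 fitted over single oocytes was 0.28 on 22 September and 0.44 on 17 September. These 2 values are descriptions with no test, since oocytes are not replicates of a state and the highest 4 share a title number.

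Within a library type some members varied together. Over the 11 pools the log2 CPM of CPEB3 and CPEB4 had a Pearson r of 0.86 and those of CPEB2 and CPEB4 one of 0.76, whereas CPEB1 had an r between -0.12 and -0.01 with each of its paralogues. PABPC1L was negative with 4 of the other 6, with r = -0.79 for PUM2, -0.68 for CPEB3, -0.64 for CPEB4 and -0.41 for CPEB2, and positive with CPEB1 (0.39) and PAPD4 (0.15). Over the 29 oocytes, CPEB4 and PUM2 had an r of 0.68, PABPC1L and PUM2 one of -0.54, and CPEB2 and CPEB4 one of -0.03. PABPC1L was positive there with CPEB3 (r = 0.52, Spearman's rho 0.071) and with PAPD4 (r = 0.49, rho 0.30). These are descriptions over libraries that share depth and composition, and the pools also differ in RN18S share, as given for PABPC1L.

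**Figure D5:**
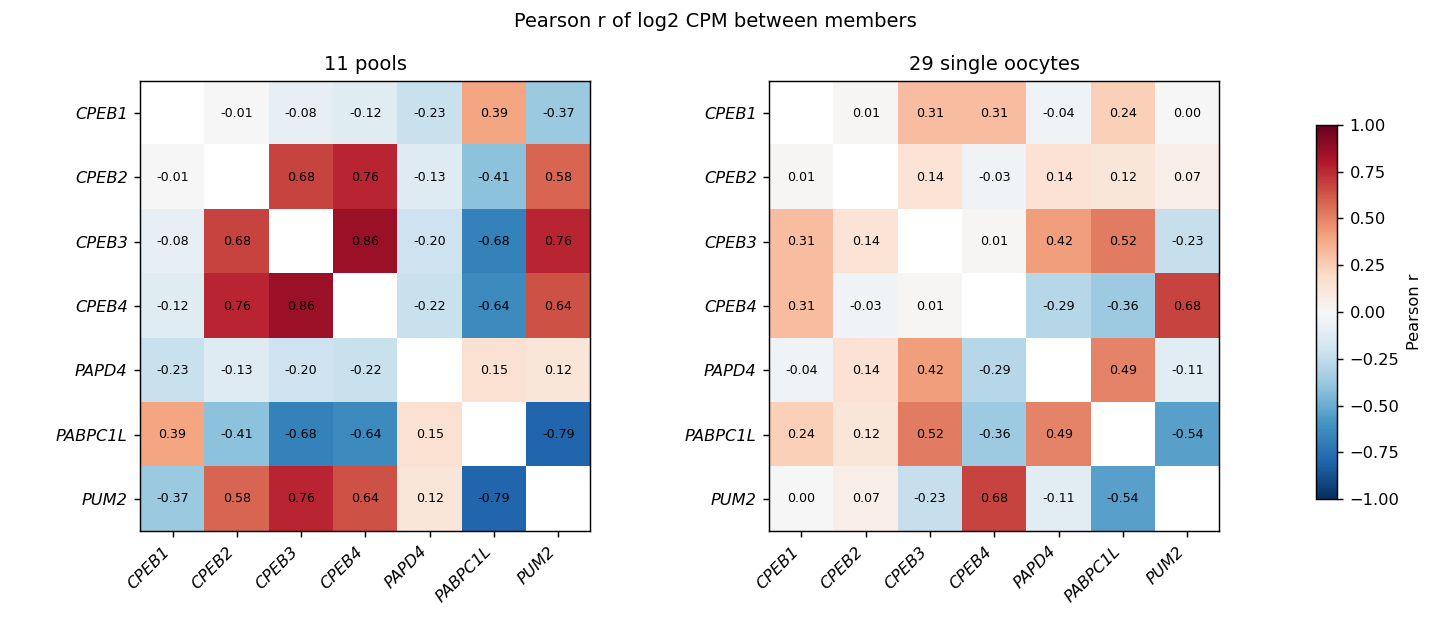
Pearson r of log2 CPM between each pair of 7 members (colour scale from -1 to 1, value printed in each cell) over 11 pools, left, and over 29 single oocytes, right. In the pools CPEB2, CPEB3, CPEB4 and PUM2 form a block of positive values from 0.58 to 0.86 and PABPC1L is negative with all 4, and in the oocytes the pair of CPEB4 and PUM2 is highest at 0.68.

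The gene most like each member was sought among named genes with a mean of at least 10 CPM, 4841 in pools and 4536 in oocytes. In the pools these were FBXW11 for CPEB1 (r = 0.92), B4GALT6 for CPEB2 (0.92), ESCO2 for CPEB3 (0.96), SENP7 for CPEB4 (0.95), HK2 for PAPD4 (0.87), PSMD2 for PABPC1L (0.96) and ZC2HC1A for PUM2 (0.95). Over the oocytes they were VWA7 for CPEB1 (0.66), PPP1R10 for CPEB2 (0.70), TM6SF1 for CPEB4 (0.78), DPPA3 for PAPD4 (0.71) and SUMO2 for PABPC1L (0.80). For PUM2 the most similar gene of the oocytes was CPEB4 itself, at 0.68. None of the 6 members with a gene given for both types had the same one in both, and each of these values is the highest among all candidate genes.

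The wider pathway was read from 5 lists: nuclear and cytoplasmic polyadenylation machinery, poly(A)-binding proteins and their partners, repressors and storage proteins, sequence-specific regulators, and mRNAs known to be polyadenylated in maturation. Between mtDNA states none of their genes passed, in the pools (13, 10, 16, 9 and 10 tested) or in the sums (12, 11, 16, 9 and 10 tested), by edgeR or by DESeq2. In the pools 4 of the 58 tested (6.90%) had an unadjusted p under 0.05, beside 5.36% of all genes. One was DDX6, the helicase that holds repressed mRNA in storage particles, with 107 ± 49.6 CPM in deficient pools, against 58.5 ± 20.4 CPM in normal pools (log2 difference 0.97, SE 0.31, edgeR unadjusted p = 0.00649, adjusted p = 0.758). Another was YBX3, a relative of YBX2, with 54.1 ± 6.43 CPM in deficient pools, against 84.7 ± 23.1 CPM in normal pools (-0.49, SE 0.22, adjusted p = 0.921). PABPC4, a cytoplasmic poly(A)-binding protein, had 58.7 ± 20.4 CPM in deficient pools, against 89.3 ± 31.5 CPM in normal pools (-0.47, SE 0.22, adjusted p = 0.921). The remaining one, EDC4, a decapping scaffold named after its values were seen, had 0.528 ± 0.655 CPM in deficient pools, against 2.11 ± 1.37 CPM in normal pools (-1.83, SE 0.84, adjusted p = 0.921).

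In the sums 2 of the 58 genes tested from the lists (3.45%) had an unadjusted p under 0.05, beside 1.93% of all genes. FIP1L1, a subunit of the complex that recognises the polyadenylation signal, had 41.1 ± 8.44 CPM in deficient sums, against 20.5 ± 2.56 CPM in normal sums, which did not overlap, as for 3.73% of all genes (log2 difference 0.80, SE 0.25, edgeR unadjusted p = 0.0058, adjusted p = 1.00). In the pools it had 296 ± 79.2 CPM in deficient ones, against 325 ± 53.9 CPM in normal ones. The other was PABPC1, the general cytoplasmic poly(A)-binding protein, at 0.521 ± 0.515 CPM in deficient sums, against 2.81 ± 0.926 CPM in normal sums, low levels in both. Its ranges, 0 to 1.23 and 1.91 to 3.76 CPM, did not overlap, as for 3.73% of all genes. The log2 difference was -2.53 (SE 0.90, edgeR unadjusted p = 0.0125), and it did not pass after adjustment. In the pools PABPC1 had 5.68 ± 4.41 CPM in deficient ones, against 6.49 ± 4.16 CPM in normal ones.

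Between library types the lists passed in both directions, as the members did. The machinery had 9 genes higher and 3 lower in pools of 14 tested, the poly(A)-binding group 8 and 1 of 11, the storage group 10 and 4 of 17, the regulators 6 and 3 of 9 and the polyadenylated mRNAs 5 and 3 of 10. Over the 5 lists that is 38 of 61 higher (62.3%) and 14 lower (22.95%), beside 31.9% and 35.3% of all genes. PAPOLG and PAPOLA, the canonical nuclear poly(A) polymerases, had log2 differences of 3.68 (SE 0.26) and 3.10 (SE 0.22), IGF2BP3 one of 3.60 (SE 0.20) and BTG4, the adaptor for maternal mRNA deadenylation, one of 3.26 (SE 0.18).

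Other genes of the lists were lower in pools too. PABPN1L, a poly(A)-binding protein of oocytes that in mice works with BTG4, had 0.232 ± 0.227 CPM in pools and 4.16 ± 1.75 CPM in sums (log2 difference -4.60, SE 0.65, edgeR adjusted p = 9.04e-07). ZFP36L2, which binds AU-rich elements, had 5.29 ± 2.55 CPM in pools and 67.4 ± 33.5 CPM in sums (-4.07, SE 0.26, adjusted p = 1.15e-12). PATL2, an oocyte translation repressor that binds RNA, stood at -2.72 (SE 0.28) and SLBP, the histone mRNA stem-loop binding protein, at -2.04 (SE 0.16). What these transcripts share with PABPC1L was not tested.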

How the data were processed

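Gene counts of 11 pools and 29 single oocytes were taken as deposited by the authors: whole-number read counts per gene, not normalized. The tools named in the submitters' processing notes are edgeR, TopHat2 2.0.14, Trim Galore and FastQC, and the build is Sscrofa10.2. Which program counted reads, and whether by strand, is not given in the sources used here, so overlapping antisense genes and near-identical copies (the CPEB paralogues and PABPC genes have relatives) are uncertain. The row with no gene name, 1.05% to 4.75% of a pool and 0.648% to 8.15% of an oocyte, was left out of library sizes and tests. A count of 0 allows up to 3 counts, 0.102 to 0.207 CPM in pools and 0.978 to 4.24 CPM in single oocytes, for counting error only.

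Tests used edgeR 4.0.16 in R 4.3.3 (filterByExpr, TMM scaling, quasi-likelihood test, Benjamini-Hochberg at 0.05) on all genes kept, in 5 comparisons: state in pools, state in sums, their interaction, library type with state as a covariate, and date with state as a covariate. The SE is the log2 difference divided by the square root of the F statistic. Scripts were tested on simulated data. Alternatives were RLE scaling, no filter, 2 abundant rows left out, DESeq2 1.42.0, limma 3.58.1 with voom, other units for the oocytes, title letters, blocks and leaving out each sample. Sums with the same title number deviated together (r of residuals 0.14, 0.21 and 0.16 for numbers 2, 3 and 4, from the titles, whose meaning is not stated). The numbers may therefore pair the sums, but the main edgeR tests of the sums carry no term for them. The block on title number is the paired alternative, and it was run for state in the sums only. The members and gene lists were chosen with earlier results of these data known. All members tested are named in every comparison but the interaction, where only CPEB2, CPEB1 and the row LOC100519387 are named. Of each list the rule names up to 4 genes past the threshold with the smallest p, or with none past it the 2 of smallest p, and for each member the most similar genes by Pearson r of log2 CPM with a prior count of 2. Not all list genes that the rule names are described here, and the lists are not described by date. Correlations carry no p. The gene most like CPEB3 over the oocytes is not reported here. Gene names for 2 rows came from a RefSeq table by gene ID.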

Additional observations from a re-analysis of the deposited data

How the results depend on the processing

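Between mtDNA states the counts of genes past the threshold were small in every setting run. In the pools DESeq2 called 28 genes. In the sums 4 passed with no filter, 2 with DESeq2, 2 with the title number as a replicate block, 1 with each oocyte as a sample and 2 among oocytes of 17 September alone. The interaction called 6 with no filter, 1 with DESeq2 and 3 with each oocyte as a sample. Between dates 237 passed with no filter, 189 with DESeq2, 343 with each oocyte as a sample and 173 among deficient oocytes alone, and leaving out a sum gave 14 to 78, the lowest without deficient sum 4 of 17 September, 19 without deficient sum 3 and 78 without normal sum 2. No member passed in any of these. Among pools that share a title code, those of B2 deviated together (r of residuals 0.47), and r was -0.10, 0.13 and 0.08 for A2, A3 and B4. Deficient A3, B2 and B4 correlated best with the normal pool of their own code and A2 did not. The margins over the next normal pool were narrow for A3 (0.127 against 0.118) and B4 (0.079 against 0.020). The codes may therefore pair the pools, but the main edgeR test of the pools carries no term for them. A replicate block on the codes put CPEB2 at 0.59, against 0.84 in the main fit. The block changed no call.

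Several estimates changed sign, most of them near 0 and some not. For state in the sums, CPEB1 was -0.18 with limma-voom, -0.26 with the block, -0.28 with each oocyte, -0.14 in sums by number and date, -0.30 on 17 September and -0.12 on 22 September. CPEB3 was 0.066, 0.034, 0.0076 and 0.11 in the first 4 of these settings, and on 17 September PAPD4 was -0.14 and PABPC1L -0.028. Leaving out a sum gave -0.23 to 0.25 for CPEB1, -0.33 to 0.35 for CPEB3, -0.19 to 0.22 for CPEB4, -0.047 to 0.21 for PABPC1L and -0.10 to 0.46 for PAPD4. In pools titled B, CPEB3 was -0.38 (0.38 over all pools), PAPD4 0.25 and PABPC1L 0.018 (-0.39 over all), and leaving out a pool gave -0.049 to 0.35 for CPEB1 and -0.34 to 0.0059 for PAPD4, and -0.029 to 0.45 for CPEB1 in the interaction. Between dates, RLE scaling gave PAPD4 0.0013 and PUM2 0.0040, DESeq2 gave PUM2 0.00059, and each oocyte as a sample gave PAPD4 0.088, PABPC1L -0.042 and PUM2 0.015. PABPC1L was -0.24 among normal oocytes, and PAPD4 was 0.56 and PUM2 0.089 among deficient ones. Leaving out a sum there gave -0.39 to 0.13 for PAPD4, -0.12 to 0.14 for PABPC1L, -0.17 to 0.11 for PUM2 and -0.27 to 0.56 for LOC100519387. Between library types LOC100519387 was -0.026 among deficient samples (0.87 over all). The cause of these changes was not tested. Depth limits PAPD4, CPEB3 and both rows found by gene ID in single oocytes, where 3 counts are 0.978 to 4.24 CPM.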
